A study of Gallus gallus with 6 samples.

Results

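SOCS2, suppressor of cytokine signalling 2, is 1 of the 10337 genes with deposited values and 1 of the 9128 whose values stayed inside the authors' limits throughout. It was chosen from its values in these libraries, namely the low level in the maxillary prominence of talpid2 embryos, so its levels, ratios and ranks are given as a description, with no test. RNA came from the buds that form the face of chick embryos, the frontonasal prominence (FNP), the maxillary prominence (MXP) and the mandibular prominence (MNP), at Hamburger-Hamilton stage HH25. The embryos were either controls or homozygous talpid2 mutants, an autosomal recessive line with defective primary cilia, and no further allele or treatment is named for either group. They came from crosses of carriers, and whether controls included carriers is not stated in the sources used here. The paper's embryos were of an inbred background or of a commercial white leghorn background. Which of these gave the libraries is not stated either, so the background of each group is unknown. Each prominence was dissected by hand, tissue of 8 embryos of a genotype was pooled, and 1 library was sequenced for each genotype and prominence. There was thus no replicate check of any difference between control and talpid2, and the 3 prominences of a genotype may come from the same embryos.

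SOCS proteins carry an SH2 domain, which binds phosphorylated tyrosines, and a SOCS box, which binds elongins B and C and thereby a cullin 5 ubiquitin ligase. SOCS2 binds the activated growth hormone receptor, lowers signalling through JAK2 and STAT5, and is itself induced by STAT5, so that it forms a negative feedback loop. In mice, loss of Socs2 gives overgrown animals with long bones.

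Reads could be recovered from the steps in the deposited values for 5116 genes, and the recovered reads of these genes summed to between 1214340 and 1538180 a library, so the deepest library held 1.27 times the reads of the shallowest. The MNP labels were checked with HAND2, a transcription factor of the mandibular arch. Its log2 value was 6.70 in control MNP and 6.91 in talpid2 MNP and lay between -0.53 and 0.14 in the other 4 libraries. C2CD3, the ciliary gene that is the study's candidate for the talpid2 mutation, had log2 ratios of talpid2 to control of -0.18 (FNP), -0.41 (MXP) and -0.16 (MNP). The candidate changes lie within the gene and need not alter its RNA level, so this level is no check of the genotype labels.

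The deposited values are on a log2 scale relative to the median of each gene over the 6 libraries, so a value of 0 is the gene's own median. In the control libraries, SOCS2 had a value of 0.20 (FNP), 0.05 (MXP) and 0.41 (MNP). In the talpid2 libraries the value was -0.05 (FNP), -1.21 (MXP) and -0.12 (MNP). All 3 talpid2 libraries lay below all 3 control libraries, and the talpid2 MXP library stood far below the other 5. On average over the 3 prominences, SOCS2 was at 0.22 ± 0.18 (SD, n = 3 prominences) in control and at -0.46 ± 0.65 (SD, n = 3 prominences) in talpid2.

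Behind these values stood 562 recovered reads in control FNP, 436 in control MXP, 680 in control MNP, 391 in talpid2 FNP, 182 in talpid2 MXP and 396 in talpid2 MNP. Scaled to the depth of the median library, the order from the highest was control MNP with 565 reads (95% exact Poisson interval 523 to 609), control FNP with 490 (450 to 532), control MXP with 440 (400 to 484), talpid2 FNP with 412 (372 to 455), talpid2 MNP with 392 (354 to 433) and talpid2 MXP with 185 (159 to 213). Each library's interval overlapped that of its neighbour in this order down to talpid2 MNP, and the interval of talpid2 MXP overlapped none. Intervals here and below cover counting error only, since reads copied by PCR are not independent molecules and embryos were not sampled again. In pooled tissue, fewer cells that express SOCS2 and less SOCS2 RNA in each cell cannot be told apart.

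**Figure D1:**
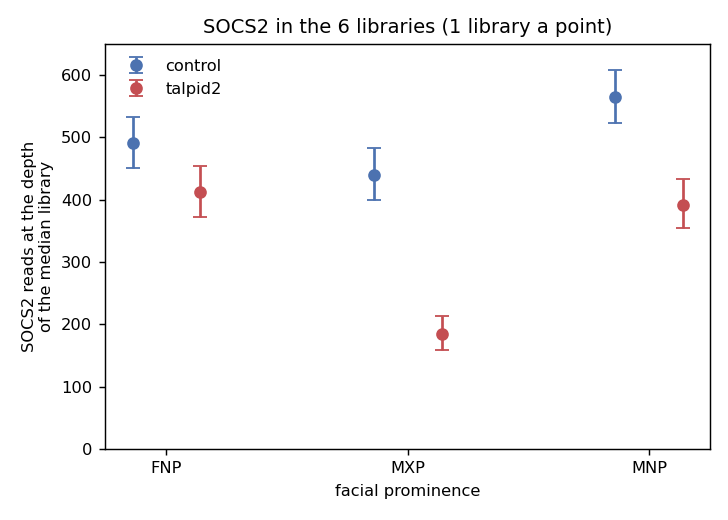
SOCS2 reads in the 6 libraries, scaled to the depth of the median library (y axis), by prominence (x axis), for control (blue) and talpid2 (red). Each point is 1 library and each bar its 95% counting interval. The talpid2 MXP library, with 185 reads, sits below the other 5, which hold 392 to 565.

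Set against the control library of the same prominence, SOCS2 was lower in talpid2 in all 3 prominences. The log2 ratio of talpid2 to control in the MXP was -1.25 (95% counting interval -1.513 to -1.003), a level 2.38-fold lower. In the MNP the ratio was -0.53 (-0.71 to -0.35), or 1.44-fold lower, and in the FNP it was -0.25 (-0.44 to -0.06), or 1.19-fold lower. The counting intervals of the 2 levels did not overlap in the MXP and the MNP, and they overlapped narrowly in the FNP.

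Ranked from the lowest ratio among the 9128 genes, SOCS2 was gene 4 in the MXP, gene 100 in the MNP and gene 916 in the FNP, which are percentiles of 0.0438, 1.10 and 10.04. By absolute size of the ratio, rises included, it was gene 12 in the MXP, 184 in the MNP and 1663 in the FNP. The ratios of all 9128 genes had an SD of 0.225 (FNP), 0.209 (MXP) and 0.193 (MNP), with medians of 0.00 in each. At the ends of the counting interval of its MXP ratio, SOCS2 would stand at the 0.0110 and the 0.175 percentile.

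**Figure D2:**
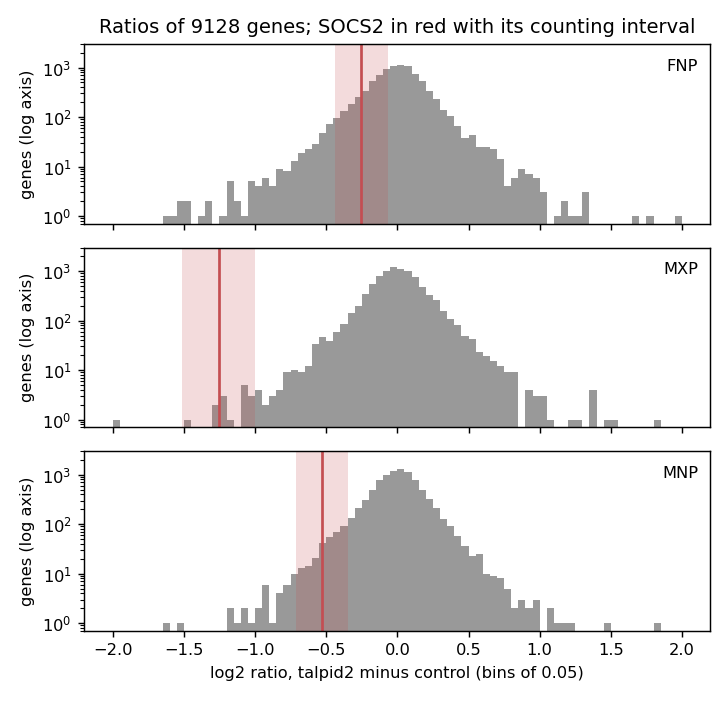
Distribution of the log2 ratio of talpid2 to control (x axis, bins of 0.05) over 9128 genes (y axis, number of genes on a log axis) in the FNP, MXP and MNP. The red line is SOCS2 and the red band its 95% counting interval. The line lies in the body of the distribution in the FNP at -0.25, in its lower part in the MNP at -0.53 and at its lower end in the MXP at -1.25.

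A fold rule of 0.5 on the log2 scale, in either direction, gives the background for SOCS2 and for the lists below. In the FNP, 177 genes (1.94%) were at or past this size higher in talpid2 and 185 (2.03%) lower. The MXP had 150 higher (1.64%) and 149 lower (1.63%), and the MNP had 97 higher (1.06%) and 127 lower (1.39%). With GAPDH as the reference gene in place of the library scaling, the ratios of all genes moved by -0.11 in the MXP, and the split became 77 higher against 259 lower for MXP tissue and 56 against 221 for MNP tissue. SOCS2 met the rule in the MXP and the MNP but not in the FNP, where its ratio was -0.25. These counts include SOCS2, which was chosen on the same contrast, so its place among them is no finding.

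The named genes ranked beside SOCS2 in the MXP were globins or had few recovered reads, several of them close copies or genes within host genes that may share reads. For each gene the smallest set of reads that fits its values was taken. Low recovered reads may thus be too low, and the intervals from them too wide. Between them stood ENSGALG00000008227, which carries no name, at -1.19 from 817 control and 357 talpid2 reads, more reads than SOCS2. Ranks 1 and 2 were the small nucleolar RNAs SNORD35, with a ratio of -1.96 (-3.86 to -0.13) from 13.6 control and 3.50 talpid2 reads, and SNORD45, with -1.46 (-3.44 to 0.48) from 9.94 and 3.60 reads. Rank 3 was the globin HBE at -1.28. Below SOCS2 came HBZ at -1.23, TDRD7 at -1.20 (-2.58 to 0.11), HBE1 at -1.20, HBA1 at -1.09 and SNORD73 at -1.08 (-2.89 to 0.69). TDRD7, a tudor domain protein of RNA granules, had 17.7 and 7.64 recovered reads. The interval of SOCS2 was narrower than that of each of these 4 genes with recovered reads. Since their reads may be too low, this comparison of widths is uncertain.

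Spread of the ratio falls with depth, and a ranking at similar depth was added after the data had been seen. SOCS2 was ranked among genes with recovered reads of 0.5 to 2 times its own in the control library. In the MXP it was the lowest of 2232 such genes, whose central 95% lay between -0.33 and 0.33. In the MNP it was gene 6 of 1856, against a central range of -0.31 to 0.30, and in the FNP it was gene 193 of 2103, within a central range of -0.40 to 0.34. The next lowest gene of similar depth in the MXP was the unnamed ENSGALG00000008227 at -1.19. After it came the small nucleolar RNA SNORD16 at -1.03 and TNFAIP6, a hyaluronan-binding secreted protein, at -0.78, from 300 control and 174 talpid2 reads. Reads were sought only up to 1000 in a library, a limit below 2 times the SOCS2 reads in control FNP and in control MNP. Genes with more reads in any library are thus absent from these sets or were recovered too low. Genes whose recovered reads are too low may be missing from these sets, so the ranks hold for the recovered reads only.

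**Figure D3:**
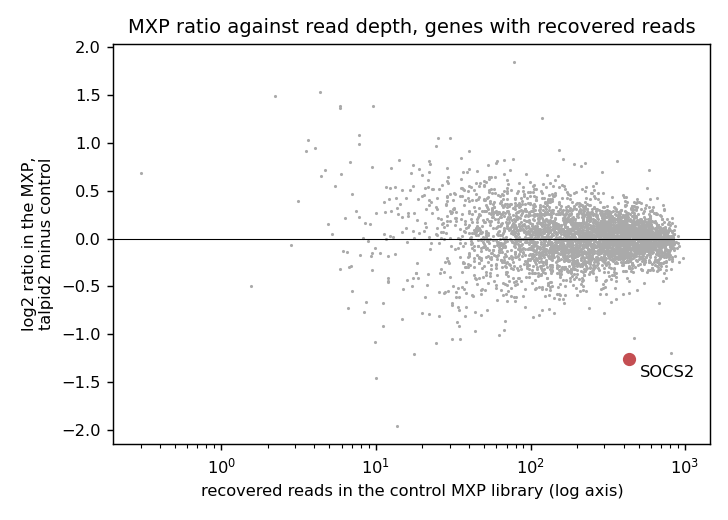
Log2 ratio of talpid2 to control in the MXP (y axis) against recovered reads in the control MXP library (x axis, log axis), 1 point for each gene within the limits in all 6 libraries whose reads could be recovered. SOCS2 (red) lies at 436 reads and -1.25, below the other genes of 0.5 to 2 times its recovered reads, of which the next lowest are at -1.19 and -1.03.

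Between prominences of the same genotype, the control libraries spanned less in SOCS2 than the talpid2 libraries. Control MXP was below control MNP by a log2 difference of -0.36 (-0.54 to -0.18), control FNP was below control MNP by -0.20 (-0.37 to -0.04), and control MXP differed from control FNP by -0.16 (-0.34 to 0.03), an interval that includes 0. In talpid2, the FNP and the MNP differed by 0.07 (-0.13 to 0.28), which also includes 0. The talpid2 MXP was lower than the talpid2 FNP by a log2 difference of -1.16 (-1.42 to -0.90), or 2.23-fold, and lower than the talpid2 MNP by -1.09 (-1.35 to -0.83), or 2.12-fold. Among the 9128 genes these were ranks 81 and 62 from the lowest. GAPDH itself differed between prominences, and with it as the reference gene 2 of the small differences changed sign, namely control MXP minus FNP (0.20) and talpid2 FNP minus MNP (-0.26).

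Ratios of the 3 prominences were also set against each other. The SOCS2 ratio in the MXP was lower than that in the FNP by a log2 difference of -1.002 (-1.32 to -0.69), rank 37 of 9128, and lower than that in the MNP by -0.73 (-1.04 to -0.41), rank 62. The FNP ratio lay above the MNP ratio by 0.28 (0.01 to 0.54). So the place where control SOCS2 was highest, the MNP, was not the place of its lowest talpid2 value.

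Over the 6 libraries SOCS2 covered a range of 1.61 on the log2 scale, the 224th widest of 9128 genes, but without the talpid2 MXP library the range was 0.53. Its talpid2 MXP value was lower than its lowest value elsewhere by a log2 difference of -1.09, and no other of the 9128 genes had as low a difference. CDC42EP3 followed at -0.68, the unnamed ENSGALG00000023743 at -0.56 and HPSE2, a heparanase-like protein, at -0.55. SOCS2 was chosen for its low talpid2 MXP value, which this measure scores, so its first place is no finding. Across the prominences the mean SOCS2 ratio was -0.68 (rank 18 from the lowest), and its ratio nearest 0, that of the FNP at -0.25, was at rank 96 when each gene was ranked by its own ratio nearest 0. The gap between the lowest control and the highest talpid2 library was 0.10 (rank 143). All 3 talpid2 libraries were below all 3 control libraries in 662 genes (7.25%), SOCS2 included, and above them in 653 (7.15%).

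In the deposited annotation, whose assembly is not named, SOCS2 (ENSGALG00000011295) lies on the plus strand of chr1:46783618-46785293 and no other listed gene overlaps it. Its 1676 bases are the span of the gene as annotated, introns included. Nearest was CRADD, a death domain adaptor 9.51 kb after SOCS2, with ratios of 0.02 (FNP), 0.02 (MXP) and -0.13 (MNP). On the other side, MRPL42, a protein of the mitochondrial ribosome 16.0 kb before SOCS2, had ratios of 0.14, -0.11 and -0.09 in the same order. The ubiquitin-conjugating enzyme gene UBE2N (33.1 kb before) and NUDT4 (59.0 kb before), which codes for a hydrolase of inositol pyrophosphates, had ratios between -0.08 and 0.05. PLXNC1, a plexin receptor gene 173 kb after SOCS2, had -0.24, -0.12 and -0.16, and CEP83, a gene of the appendages that anchor the centriole of the cilium, had 0.17, -0.08 and -0.08. None of these 6 neighbours was past 0.5 in any prominence, and the 119 genes within 5 Mb of SOCS2 had median ratios of 0.01, 0.01 and -0.02. The lowest ratios among them were -0.59 (FNP), -0.53 (MXP) and -1.06 (MNP), beside -0.25, -1.25 and -0.53 for SOCS2. C2CD3 lies on the same chromosome as SOCS2, 154 Mb away.

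The pattern of SOCS2 over the 6 libraries was compared with those of the 709 genes that covered a log2 range of at least 1, by Pearson's r over 6 values. All values of a library share that library's scaling, and the talpid2 MXP value weighs heavily in r. The gene most like SOCS2 was CDC42EP3, an effector of the GTPase CDC42, with r = 0.951, the only gene above 0.95. Its values were -0.03 in control FNP, 0.03 in control MXP, 0.37 in control MNP, -0.25 in talpid2 FNP, -0.93 in talpid2 MXP and 0.05 in talpid2 MNP. Like SOCS2 it was highest in control MNP and lowest in talpid2 MXP, with ratios of -0.22 (FNP), -0.95 (MXP) and -0.31 (MNP). Its recovered reads were fewer (67.5 in control MXP and 34.7 in talpid2 MXP). Next were PXK, a phox domain kinase-like gene (r = 0.913, MXP ratio -0.52), the protocadherin PCDH19 (r = 0.864, -0.43), the membrane-type metalloproteinase MMP17 (r = 0.835, -0.37) and a 5S_rRNA gene (r = 0.835, -1.05), which is 1 of many near-identical copies and therefore uncertain. Each of these 5 was at its lowest in talpid2 MXP, as SOCS2 was, but the choice by r favours such genes, so this is no separate finding.

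**Figure D4:**
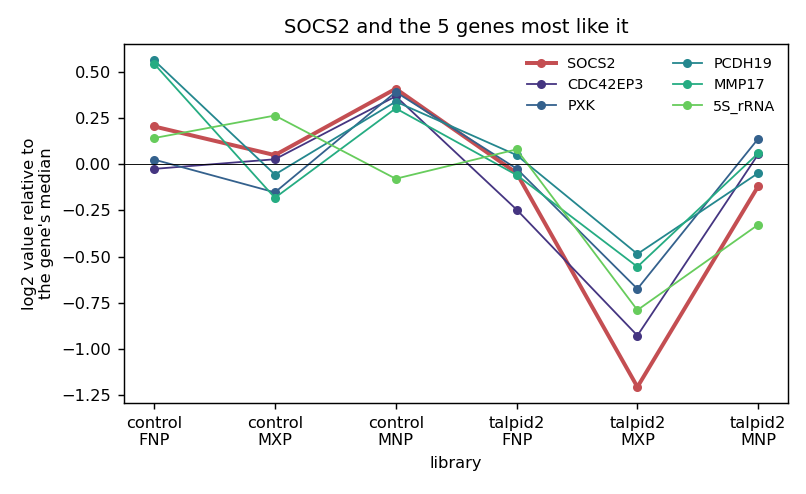
Log2 values relative to each gene's median (y axis) in the 6 libraries (x axis) for SOCS2 (red, thick) and the 5 named genes most like it. Lines join the libraries of a gene for reading only. All 6 genes are lowest in talpid2 MXP, SOCS2 at -1.21 and CDC42EP3 at -0.93, which the choice of genes by correlation with SOCS2 favours.

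Of the 7 other SOCS family genes listed, 5 had values, all within the limits in every library. None of them was past 0.5 in the MXP, where SOCS2 was at -1.25. SOCS2 was chosen for its low level there, so this distance from its family is no finding. SOCS1, which blocks the JAK kinases directly, had ratios of -0.18 (FNP), -0.20 (MXP) and -0.51 (MNP). Its reads in the MNP were 35.1 in control and 20.7 in talpid2, and the exact Audic-Claverie test gave p = 0.230 there. That test, named in the study's methods, compares the reads of 2 libraries and not the genotypes, and 10.1% of the 5116 genes with recovered reads were at p of at most 0.05 higher in talpid2 and 11.1% lower in FNP tissue, with 8.6% and 8.03% in MXP tissue and 8.54% and 9.5% in MNP tissue. SOCS6, a regulator of receptor tyrosine kinases, had a ratio of -0.38 in the MXP from 223 and 171 reads (exact p = 0.00975, uncorrected). SOCS5, known for its action on EGF receptor signalling, had -0.42 in the FNP from 170 and 105 reads (exact p = 0.0177, uncorrected). SOCS4 lay between -0.19 and 0.02, and SOCS7 was higher in talpid2 in each prominence, by 0.23 to 0.39, below the fold rule and without recovered reads. The median ratio of the 5 in the MXP was -0.16, against 0.00 over all genes.

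Of 7 listed genes of the ubiquitin ligase through which a SOCS box acts, 5 had values, namely TCEB1 (elongin C), the scaffold CUL5, the RING protein RNF7, the NEDD8-conjugating enzyme UBE2F and the ubiquitin ligase ARIH2. Their ratios lay between -0.09 and 0.22, and none was past 0.5.

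Upstream of SOCS2 lie receptors, kinases and STAT factors. Of 21 listed JAK-STAT genes 14 had values and 11 were within the limits in all 6 libraries. Past 0.5 lower was 1 of the 11 in the FNP (JAK2), 1 in the MXP (STAT5B) and 1 in the MNP (JAK2), and none was higher. Over all genes 2.03% (FNP), 1.63% (MXP) and 1.39% (MNP) were lower by that size. JAK2, the kinase bound to the growth hormone receptor, had ratios of -0.63 (FNP), -0.17 (MXP) and -0.84 (MNP). Its recovered reads were 7 to 23 a library, which may be too low. On these reads none of the 3 exact tests was at p of at most 0.05 (0.379, 0.809 and 0.126). STAT5B, a factor that induces SOCS2, had ratios of 0.22, -0.69 and 0.23, and in the MXP the reads were 31.1 in control and 19.2 in talpid2 (exact p = 0.0944). In an exact conditional test added after the data had been seen, the difference of its MXP ratio from that in the FNP did not pass (adjusted p = 0.619 over 5116 genes), nor did that from the MNP (adjusted p = 0.765). A difference between prominences was thus not detectable at the recovered reads, which may be too low. SH2B3, an adaptor that restrains JAK2 and was within the limits in 5 libraries, had -0.94 in the FNP (exact p = 0.00521, uncorrected) and -0.36 in the MXP.

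For the growth hormone and insulin-like growth factor axis, 17 of 27 listed genes had values and 12 were within the limits in all 6 libraries. The growth hormone receptor GHR, the receptor that SOCS2 restrains, had ratios of -0.60 (FNP), 0.09 (MXP) and -0.26 (MNP). In the MXP, where SOCS2 was lowest, none of the 12 was past 0.5 and their median ratio was 0.04. Some genes outside the limits in 1 or more libraries gave larger ratios. Recovered reads were few for GRB14 in the MXP (4 control and 13.0 talpid2) and more for STC2 in the FNP (99.1 and 43.2). STC2, a secreted inhibitor of IGF-binding protein cleavage, had a ratio of -0.92 in FNP tissue (exact p = 0.00028, uncorrected), -0.79 in MXP tissue (0.0677) and -0.55 in MNP tissue (0.0026). IGFBP5, within the limits in 3 libraries, had -1.46 in the MXP (exact p = 0.00618, uncorrected), PAPPA had -0.60 in the FNP, IGF2 lay between -0.78 and 0.71, and GRB14, within the limits in 2 libraries, had 1.70 in the MXP (exact p = 0.0482, uncorrected). Of 22 listed cytokine and other receptors 10 had values, and the 9 within all limits lay between -0.32 and 0.19.

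Of 15 other listed genes that STAT factors regulate, 9 had values and 8 were within all limits. In the MXP, where SOCS2 was at -1.25, the 8 lay between -0.54 and 0.46. BCL6, a transcriptional repressor whose gene STAT5 represses, was higher in talpid2 with ratios of 0.99 (FNP), 0.46 (MXP) and 0.56 (MNP), the last of which was 0.48 with GAPDH as the reference. PIM3, a kinase gene, had 0.53 in the FNP and 0.11 in the MXP. MYC, a growth regulator, had -0.79 in the FNP from 154 and 73.6 reads (exact p = 8.4e-05, uncorrected), -0.54 in the MXP (0.0468) and -0.01 in the MNP. The difference between its MXP and FNP ratios did not pass the exact conditional test (adjusted p = 0.957). CCND1, the gene of cyclin D1, lay between -0.19 and -0.08.

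Growth hormone signalling acts on cartilage, and 10 of 17 listed skeletogenic genes had values, 6 of them within all limits. COL9A1, a cartilage collagen, had a ratio of 1.38 in the MXP, from values of -1.76 in control and -0.38 in talpid2, and 0.04 in the FNP. FGFR3, a receptor that restrains cartilage growth, had ratios of -0.31 (FNP), -0.49 (MXP) and -0.56 (MNP) (exact p = 0.0116 in the MXP, uncorrected), and was the member nearest to SOCS2 in direction. ACAN, MATN1 and RUNX2 were outside the limits in some libraries and were past 0.5 in 1 or more prominences, with MXP ratios of 0.66, -0.09 and 0.69.

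Together these lists held 113 symbols other than SOCS2, of which 69 had values and 55 were within all limits. In the MXP, 1 of the 55 (1.82%) was past 0.5 higher in talpid2 and 2 (3.64%) lower, against 1.64% and 1.63% of all genes, and their median ratio was -0.04. For the FNP there were 2 higher (3.64%) and 3 lower (5.45%), against 1.94% and 2.03% of all genes. The MNP had 1 higher (1.82%) and 3 lower (5.45%), against 1.06% and 1.39%. All 3 talpid2 libraries were below all 3 controls in 5 of the 55 and above them in 2, against 7.25% and 7.15% of all genes. A limma fit of genotype with prominence as a term called 0 of the 9128 genes at an adjusted p of 0.05, with 1590 at an unadjusted p under 0.05, while the Audic-Claverie test after Benjamini-Hochberg adjustment called 480 (FNP), 270 (MXP) and 314 genes (MNP).

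**Figure D5:**
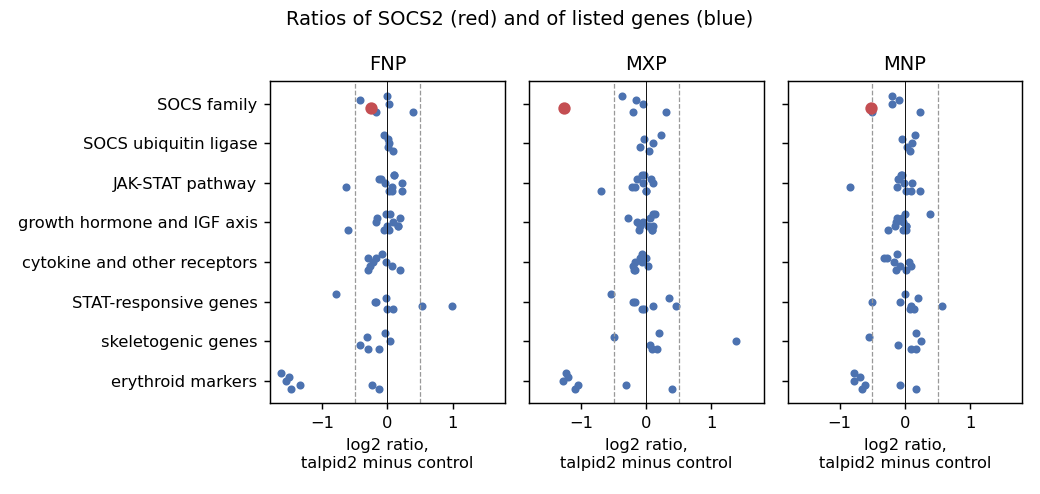
Log2 ratios of talpid2 to control (x axis) in the FNP, MXP and MNP for SOCS2 (red) and for the genes of 8 lists (blue, rows) that were within the limits in all 6 libraries. Dashed lines mark 0.5 in each direction. In the MXP, SOCS2, chosen for its low level there, is at -1.25. The 5 other family genes lie between -0.38 and 0.31, and the 5 globins between -1.28 and -1.04.

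Markers of other cell types were read beside the SOCS2 ratios. Of 14 listed erythroid markers 9 had values, and the 5 globins among them were lower in talpid2 in every prominence, with ratios of -1.64 to -1.34 (FNP), -1.28 to -1.04 (MXP) and -0.78 to -0.62 (MNP). In the MXP the globin ratios were of the size of that of SOCS2 (-1.25). In the FNP they were larger in size, and SOCS2 had -0.25. Within talpid2, the globins were higher in the MXP (-0.35 to -0.25) than in the FNP (-0.81 to -0.65), and SOCS2 was lower in the MXP than in the FNP. The erythroid genes KLF1 and EPB42, within the limits in 3 libraries, had MXP ratios of -0.42 and -0.95. TFRC, the transferrin receptor gene, had -0.32 there, and TAL1, a blood transcription factor gene, was higher in talpid2 at 0.40, both within all limits. Values centred on each gene's median give no summed level, and the part of red cells in the SOCS2 ratios was not tested.

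Other markers had smaller ratios in the MXP than the globins. All 6 epithelial genes with values lay between -0.38 and 0.16, the 3 neural genes within all limits between -0.16 and 0.12 and the 3 macrophage genes between 0.01 and 0.14. Of 7 mesenchymal genes, MSX1 alone was past 0.5 in the MXP, at 0.53, and it had 0.18 in the FNP and 0.72 in the MNP. COL3A1 had -0.58 (FNP), -0.44 (MXP) and -0.50 (MNP). Among 6 endothelial genes, EGFL7 had 0.54 in the MXP and PECAM1 0.58 in the FNP. With GAPDH as the reference, EGFL7 and MSX1 were both at 0.42 in the MXP. SOX2 in the MNP (-0.67) was the 1 neural gene within all limits past 0.5, while NEFM, MYOD1, DES and TNNT2 were past it but within the limits in at most 3 libraries. The part of these cell types in the SOCS2 ratios was not tested.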

How the data were processed

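Total RNA was extracted with TRIzol, made into libraries with TruSeq and Ovation chemistry, and sequenced on an Illumina HiSeq instrument, all libraries in 1 lane according to the column headers. The authors aligned reads to an Ensembl chick genome and processed them in GeneSpring. The aligner is not given in the sources used here. The deposited log2 values were scaled by library, set to 1 where lower, and centred on each gene's median by the authors, who required a value between 3.0 and an upper limit in 1 or more of 6 libraries and deposited the number of libraries within those limits.

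The members and lists were chosen with earlier results of these data known. The log2 ratio is talpid2 minus control, with no pseudocount. Because the scaled values step by the worth of 1 read, reads (in steps of 1 base of a 50-base read) could be recovered for 5116 of 10337 genes (49.5%), an approach taken after seeing the data. For SOCS2, 1 solution was found within 1000 reads and 4 of its 6 libraries gave whole reads. Whole multiples of that solution would fit too, but they lie beyond this limit and were not searched. For every other gene the smallest solution was kept, although larger multiples within 1000 reads may fit too. Recovered reads of other genes may thus be too low. That would widen their intervals, raise their exact p-values and change the sets of similar depth. Recovered reads gave exact Poisson intervals for levels, exact Clopper-Pearson intervals for ratios and a 2-sided exact Audic-Claverie test on reads rounded to whole numbers. limma fitted genotype with prominence as a term. Calls by fold needed 0.5 on the log2 scale. An exact conditional test of equal ratios between prominences was added for 5 listed genes, of which none was at an adjusted p of 0.05. Scripts were tested on simulated data. For the recovery these were drawn around the recovered reads, so they could not show whether the smallest solution was too low. Symbols came from the deposited annotation or, for 7390 genes, from RefSeq.

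Genes were named by rule: the 3 nearest genes on each side of SOCS2, the 5 most correlated with it among genes with a range of at least 1, up to 5 named genes on each side in the MXP ranking, and list members past 0.5, of which 1 is not reported here. Others named, such as CCND1, GAPDH, SOCS4 to SOCS7 and the next lowest genes of similar depth, were picked after their values were seen. Analyses used Python 3.11.15, numpy 2.4.6, scipy 1.17.1, pandas 2.3.3, matplotlib 3.10.9, R 4.3.3 and limma 3.58.1.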

Additional observations from a re-analysis of the deposited data

How the results depend on the processing

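The labels carry no replicate numbers, so libraries could not be paired by embryos. Control and talpid2 were matched only by prominence, which was a term of the limma fit. That fit called 0 genes also without the FNP, the MXP or the MNP in turn. So few libraries then remain to estimate the spread that 0 calls there are no check of stability. With 1 library a group, no replicate could be left out of the other results. Of 36 alternative settings for SOCS2 values, 31 kept the direction and stayed within the range set by the counting interval, 3 moved the value and 2 turned its direction. Ranked among all deposited genes instead of those within the limits in all 6 libraries, SOCS2 was at the 0.455 percentile in the MXP. Among genes of similar depth by recovered reads it was at the 0.323 percentile in the MNP. Its MNP percentile was 3.25 among all deposited genes. Among genes with recovered reads and a pseudocount of 10 reads the percentiles were 15.1 (FNP), 0.0977 (MXP) and 3.03 (MNP). Relative to GAPDH, control FNP minus MNP was -0.63, control MXP minus FNP was 0.20 and talpid2 FNP minus MNP was -0.26. Counts of genes past 0.5, higher and lower in talpid2, were 381 and 431 (FNP), 360 and 375 (MXP), and 262 and 383 (MNP) over all deposited genes. At a threshold of 1 they were 14 and 23, 13 and 16, and 7 and 8. The same counts with GAPDH were 77 and 259 (MXP) and 56 and 221 (MNP). Audic-Claverie calls after adjustment were 480, 270 and 314. Of 70 settings for single listed genes, 67 left the value in place, and the 3 that moved it used GAPDH as the reference. Setting the median ratio to 0 shifted ratios by at most 0.003, also for SOCS2, so it could hardly move a value and those settings were a weak check. Depth is unknown for the genes without recovered reads and may be too low for those with few.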
